A study of Mus musculus with 8 samples.

Results

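The 10 genes described here encode 5 matrix metalloproteinases (Mmp2, Mmp3, Mmp9, Mmp13 and Mmp14), the aggrecan- and versican-cutting proteases Adamts1 and Adamts5, and 3 tissue inhibitors of metalloproteinases (Timp1, Timp2 and Timp3). They were chosen by name: each is the row of the deposited mouse muscle table whose Ensembl identifier maps to that symbol, 10 of 23008 mouse genes. All 10 had a mean of at least 10 normalised reads over the 8 libraries, the minimum for testing that 15960 genes passed. Mmp13 passed that minimum through 1 library alone.

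Matrix metalloproteinases are zinc proteases, most of them made as inactive precursors, that cut collagens, gelatin, proteoglycans and other proteins outside the cell. The inhibitors encoded by the Timp genes bind and block them, and Timp3 also blocks ADAMTS proteases. At the cell surface, MMP14 and TIMP2 together help to activate the MMP2 precursor, so that TIMP2 acts both as an inhibitor and as a partner. In skeletal muscle these proteases are made largely by connective tissue cells, immune cells and cells of vessels rather than by the fibres, and they are known for remodelling of the matrix after injury.

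RNA was sequenced from the gastrocnemius, a calf muscle, of wild-type C57BL/6J mice in 2 groups of 4 libraries. Both groups had received the same gene-activating construct, GNDM, in the virus AAV9 through the tail vein, and muscle was collected 11 weeks later. In the m31 group the guide targeted Lama1, which encodes a laminin chain of embryonic basement membrane, and in the control group the guide had no target. The labels give the age at injection once as 7 weeks and once as 7 to 12 weeks, do not give the dose, and do not say that the libraries are of different animals. The p-values thus describe the spread among these samples, which may be technical. The labels name no promoter for the construct, and the table lists CK8, the name of a muscle-specific cassette, among its construct entries. Muscle without the construct was not analysed here. In such bulk samples more cells of a type and more RNA per cell cannot be told apart.

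The libraries held 25157486 to 39210248 reads in genes, and values are normalised reads, that is, read counts divided by 1 factor per library. Lama1 stood at 209, 295, 273 and 86.5 in m31 replicates 1 to 4 and at 4.18, 0, 2.25 and 0 in the control libraries (log2 difference 6.60 ± 0.58 SE, limma adjusted p = 0.00372). Defining genes of muscle fibre were abundant in both groups, with Myh4 at 2151680 ± 234495 with m31 and 2253190 ± 256262 in controls (SD, n = 4 each). A pair of libraries bears on what follows. The library m31 replicate 4 had the lowest Lama1 of its group and the lowest GNDM level of all 8, at 6157, and control replicate 3 had the highest GNDM level, at 37989. These 2 also scored highest of the 8 on the macrophage marker list.

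With m31, 1 of the 10 genes, Adamts5, was above every control library in all 4 libraries, and its level was 1.49-fold higher. Of the other 9 genes, the 4 metalloproteinases Mmp2, Mmp3, Mmp13 and Mmp14 were led by m31 replicate 4, in which each was more than 2-fold above all other 7 libraries. Timp3 differed least between groups. Differences were tested on log2(value + 1) with limma, a linear model with a spread estimate shared across genes, with p-values adjusted by the Benjamini-Hochberg method over the 15960 genes. None of the 10 genes passed an adjusted p of 0.05, where 1 gene of all tested (0.00627%), Lama1, did. At an unadjusted p under 0.05 there were 3 of the 10 (Adamts1, Adamts5 and Timp1), all with higher values in m31, beside 6.79% of all genes, 3.76% higher and 3.03% lower. That count was 1, Adamts5, without control replicate 1 or control replicate 4 (5.46 and 5.29% of all genes), 5 without control replicate 3 (11.9%) and 6 with library weights (13.8%). Groups did not overlap for 1 of the 10, beside 3.85% of all genes, 1.84% with m31 higher and 2.02% with m31 lower.

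On recovered whole reads, edgeR's quasi-likelihood test passed 0 of the 9 genes that met its own minimum (not Mmp13) by adjusted p (0.00618% of all genes) and 4 by unadjusted p (7.02% of all genes), the 4 being Adamts1, Adamts5, Timp1 and Timp2. DESeq2 on the same reads passed 1, Adamts5, of the 7 to which it gave an adjusted p (not Mmp3, Mmp13 and Mmp14), beside 0.164% of all genes. All 10 estimates were positive, as were 51.3% of all genes tested, and their median log2 difference was 0.56 beside 0.01 over all genes. Mmp13 is among the 10, although it passed the minimum through m31 replicate 4 alone. Without m31 replicate 4 the estimate was positive for 7 of the 9 genes still tested, beside 50.7% of all genes, and the median was 0.35.

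**Figure D1:**
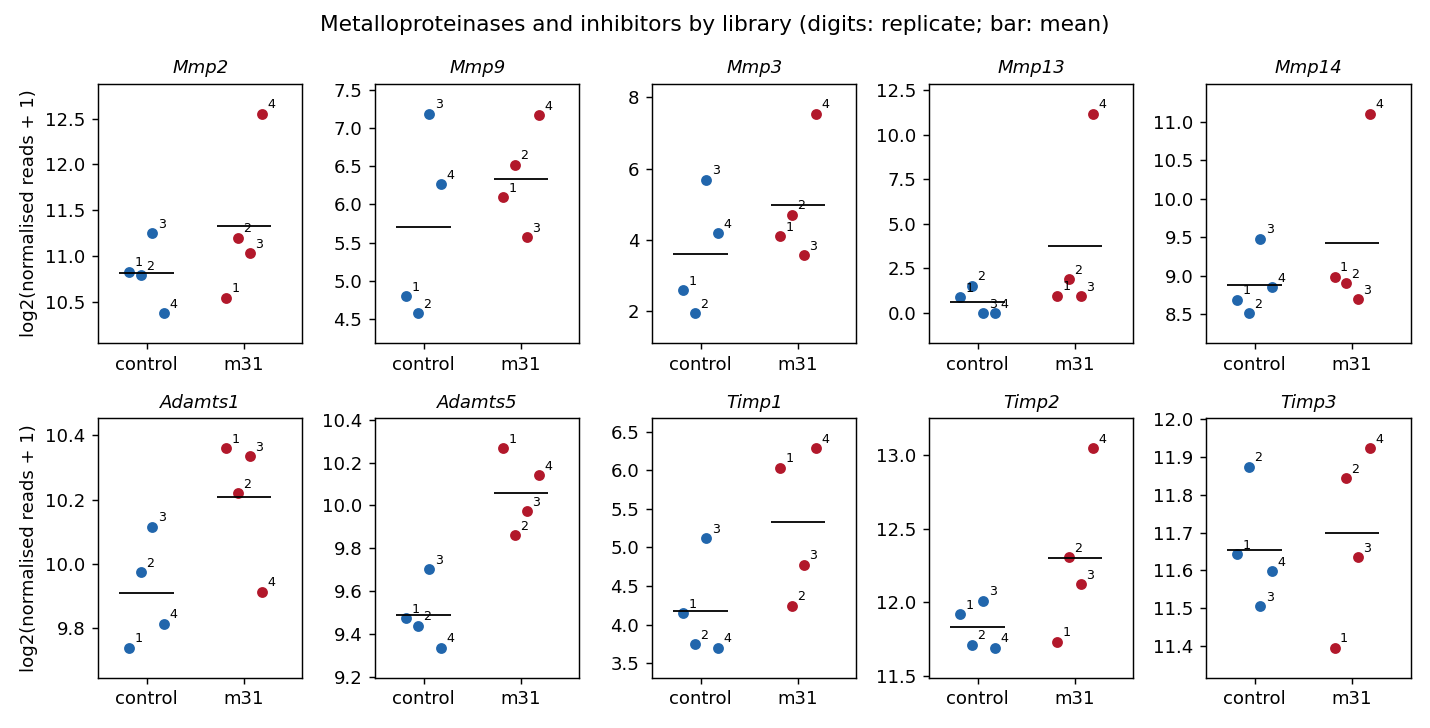
Each of the 10 genes in its own panel and on its own axis, as log2(normalised reads + 1), with 1 point per library (digits are replicate numbers) and bars at the group means. For Adamts5 all 4 m31 points (928 to 1231 normalised reads) lie above the control points (645 to 832), and for Mmp13 the single point of m31 replicate 4, at 2338 normalised reads, lies far above the other 7.

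**Figure D2:**
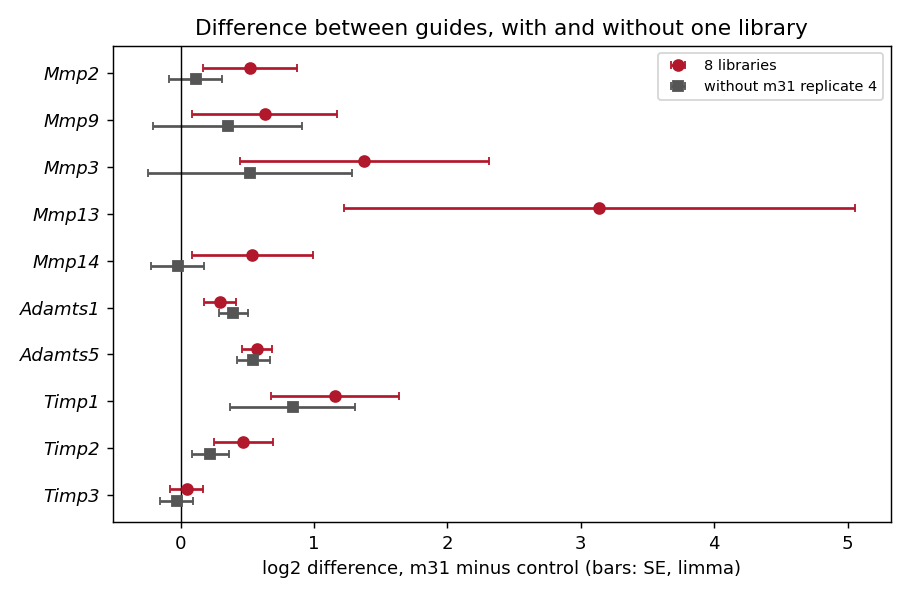
Log2 differences, m31 minus control, on the log2(value + 1) scale with standard errors, for the 10 genes with all 8 libraries and without m31 replicate 4. The value of Mmp14 moves from 0.54 to -0.02 and that of Mmp2 from 0.52 to 0.11, while Adamts5 stays near 0.57 and 0.55.

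The gelatinases MMP2 and MMP9 cut denatured collagen and collagen IV of basement membranes. Mmp2 (ENSMUSG00000031740, chr8:92827291-92853420 in GRCm38, plus strand) stood at 1491, 2352, 2085 and 6022 in m31 replicates 1 to 4. The control libraries stood at 1815, 1770, 2429 and 1327. One m31 library was thus 2.48-fold above the highest of the others, and the other 3 lay among the controls. The means were 2988 ± 2055 and 1835 ± 453 (SD, n = 4 each), with a log2 difference of 0.52 ± 0.35 (SE, limma adjusted p = 0.827) that was 0.11 ± 0.20 without m31 replicate 4.

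Mmp9 (ENSMUSG00000017737, chr2:164940780-164955850, plus strand), which white blood cells store and release in quantity, was the 1 gene of the 10 that was highest in a control library. It stood at 67.4, 90.7, 46.4 and 143 with m31 and at 26.8, 22.9, 145 and 76.0 in controls. The m31 range lay within the control range, with both m31 replicate 4 and control replicate 3 near the top. The log2 difference was 0.63 ± 0.54 (SE, limma adjusted p = 0.851). It depended on single libraries, at 0.35 without m31 replicate 4, 0.33 and 0.25 without control replicates 1 and 2, and 1.12 without control replicate 3.

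The stromelysin MMP3 cuts proteoglycans, fibronectin and other metalloproteinase precursors, and MMP13 is the main collagenase of rodents, abundant in bone and cartilage. Their genes lie 162 kb apart on chromosome 9, with Mmp12 and Mmp1b between them. Upstream sequence is shown for 4 genes because their library patterns contrast: Mmp13, Mmp3 and Mmp14 were led by m31 replicate 4, whereas Adamts1 was at its lowest m31 value there. The promoter table used here held 7 of the 10 genes. Each sequence is the 120 bases before the RefSeq start in GRCm38.p6, read 5′ to 3′ on the gene's strand: chr9:7272394-7272513 for Mmp13, chr9:7445702-7445821 for Mmp3 and chr14:54431478-54431597 for Mmp14, all on the plus strand, and chr16:85803114-85803233 on the minus strand for Adamts1. Capitals mark any of 5 searched motifs.
Mmp13: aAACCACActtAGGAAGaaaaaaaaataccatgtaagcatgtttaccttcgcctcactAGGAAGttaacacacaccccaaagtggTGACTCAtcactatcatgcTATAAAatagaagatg
Mmp3: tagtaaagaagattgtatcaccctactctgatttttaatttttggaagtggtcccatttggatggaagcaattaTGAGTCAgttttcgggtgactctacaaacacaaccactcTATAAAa
Mmp14: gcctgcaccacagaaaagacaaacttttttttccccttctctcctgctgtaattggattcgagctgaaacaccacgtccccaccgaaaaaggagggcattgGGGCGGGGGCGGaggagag
Adamts1: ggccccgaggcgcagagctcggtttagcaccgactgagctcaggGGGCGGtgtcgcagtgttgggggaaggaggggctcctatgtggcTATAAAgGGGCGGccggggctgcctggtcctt

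Motifs were searched on both strands in the 250 bases before the start, and their background is the share of 32851 RefSeq promoter windows. The AP-1 letters TGANTCA occurred in 6.75% of windows and in 2 of the 7 genes, at bases 35 to 29 before the Mmp13 start and at bases 46 to 40 before that of Mmp3. The TATA letters TATAAA, present in 12.4% of windows, stood at bases 16 to 11 for Mmp13, 7 to 2 for Mmp3 and 32 to 27 for Adamts1. The Runx letters AACCACA, present in 4.40%, were found only in Mmp13 of the 7, at bases 119 to 113. The GC box GGGCGG, present in 32.7%, was in Mmp14, Adamts1, Timp1, Timp2 and Timp3, and the ETS letters AGGAAG, present in 29.5%, were in Mmp3, Mmp13, Mmp14, Timp1 and Timp3. No overlap between different motifs was present in the 4 sequences. A match is a description of letters and no record of binding.

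Mmp13 (ENSMUSG00000050578, chr9:7272514-7283331, plus strand) stood at 0.95, 2.70, 0.910 and 2338 in m31 replicates 1 to 4, from 1, 3, 1 and 2918 reads. The control libraries held 1, 2, 0 and 0 reads, that is 0.837, 1.91, 0 and 0. A count of 0 allows up to 3.37 in control replicate 3 and 4.0 in control replicate 4 (3 reads). Mmp13 was thus at the limit of detection in 7 libraries and abundant in 1. The ratio of m31 replicate 4 to the other 7 pooled, with 8 reads between them, was 2089, and its exact 95% interval, for counting error alone, was 1059 to 4843. Between groups the log2 difference was 3.14 ± 1.92 (SE, limma adjusted p = 0.803), and without m31 replicate 4 the gene was under the minimum.

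Mmp3 (ENSMUSG00000043613, chr9:7445822-7455975, plus strand) stood at 16.1, 25.2, 10.9 and 186 with m31 and at 5.02, 2.86, 50.6 and 17.3 in controls. It had the same leading library, 3.68-fold above the next, which was control replicate 3. The means were 59.5 ± 84.4 and 18.9 ± 22.0 (SD, n = 4 each), with a log2 difference of 1.38 ± 0.93 (SE, limma adjusted p = 0.827) and of 0.52 without m31 replicate 4. The stromelysin-2 gene Mmp10, on the same chromosome and picked out after its values were seen, held 30 reads in m31 replicate 4, at 24.0 normalised reads, and 0 in the other 7 libraries. Against a floor of 3 reads over those 7 the ratio was 57.3, with the 30 reads taken as exact. The exact 95% lower limit of the ratio, with counting error in both, was 43.8.

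MMP14 is the main membrane-anchored collagenase and an activator of MMP2 and MMP13. Mmp14 (ENSMUSG00000000957, chr14:54431612-54445364, plus strand) stood at 507, 478, 413 and 2202 in m31 replicates 1 to 4. The control libraries stood at 413, 365, 713 and 461. Again 1 m31 library was apart, 3.09-fold above control replicate 3, the next highest, and the other 3 m31 libraries lay within the control range. The means were 900 ± 869 and 488 ± 155 (SD, n = 4 each). The log2 difference was 0.54 ± 0.45 (SE, limma adjusted p = 0.849) with all libraries and -0.02 without m31 replicate 4. With m31 replicate 4 and control replicate 3 left out together it was 0.18, so its sign depended on which libraries were kept.

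ADAMTS1 and ADAMTS5 cut the large proteoglycans versican and aggrecan, and ADAMTS5 is the main aggrecan-cutting enzyme of mouse cartilage. Their genes are neighbours on the minus strand of chromosome 16, 53.1 kb apart with 0 annotated protein-coding genes between them. Adamts5 (ENSMUSG00000022894, chr16:85856173-85901828) stood at 1231, 928, 1003 and 1128 in m31 replicates 1 to 4. The control libraries stood at 710, 693, 832 and 645. Every m31 library was above every control library, and m31 replicate 4 lay within the range of the other m31 libraries. The means were 1073 ± 134 and 720 ± 79.5 (SD, n = 4 each).

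The Adamts5 log2 difference was 0.57 ± 0.11 (SE), with an unadjusted p of 0.000365 by limma and an adjusted p of 0.416. By a two-sided exact permutation test p was 0.0286, the lowest possible with 70 arrangements of 8 libraries. Adamts5 passed DESeq2's adjusted threshold (log2 difference 0.58 ± 0.13, adjusted p = 0.0123) and did not pass edgeR's (adjusted p = 0.455). Its difference stayed between 0.50 and 0.64 in the 20 alternative settings tried, and was 0.55 without m31 replicate 4. The estimate therefore depended little on the setting, while the call depended on the tool.

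Adamts1 (ENSMUSG00000022893, chr16:85793827-85803113) stood at 1313, 1191, 1292 and 964 with m31 and at 854, 1004, 1109 and 899 in controls. Its 3 highest libraries were m31 replicates 1 to 3, and m31 replicate 4 lay among the controls. The means were 1190 ± 160 and 967 ± 114 (SD, n = 4 each), a log2 difference of 0.30 ± 0.12 (SE, limma unadjusted p = 0.0311, adjusted p = 0.720). Without m31 replicate 4 the difference was 0.39 ± 0.11 (limma unadjusted p = 0.00417, adjusted p = 0.670), and both Adamts genes were then above every control library. In that setting 3.76% of all genes had such groups with m31 higher, and 3.20% had an unadjusted p under 0.05 with m31 higher. Of the 9 genes tested both ways, Adamts1 was the 1 whose estimate was higher without that library.

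TIMP1 is the inducible inhibitor of many secreted metalloproteinases, released by stromal and inflammatory cells. Timp1 (ENSMUSG00000001131, chrX:20870166-20874735, plus strand) stood at 64.6, 18, 26.4 and 76.9 normalised reads with m31. The control libraries stood at 16.7, 12.4, 33.7 and 12.0. Its highest values were in m31 replicates 1 and 4, and the other 2 m31 libraries were below control replicate 3. The log2 difference was 1.16 ± 0.48 (SE, limma unadjusted p = 0.0342, adjusted p = 0.720), with an exact permutation p of 0.114, and it was 0.84 without m31 replicate 4. Timp1 lies within Syn1 on the other strand, which held 4.0 to 9.21 normalised reads per library. Strand use in counting is not known.

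Timp2 (ENSMUSG00000017466, chr11:118301069-118355740, minus strand), the inhibitor that also takes part in MMP2 activation, stood at 3400, 5068, 4454 and 8470 with m31 and at 3870, 3349, 4125 and 3302 in controls. One m31 library, replicate 4, was 1.67-fold above the next, m31 replicates 2 and 3 were also above all controls, and m31 replicate 1 was among them. The means were 5348 ± 2193 and 3661 ± 402 (SD, n = 4 each), a log2 difference of 0.47 ± 0.22 (SE, limma adjusted p = 0.740) and of 0.22 without m31 replicate 4. Cep295nl, which overlaps Timp2 on the same strand, held 0 to 14.4 normalised reads.

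Timp3 (ENSMUSG00000020044, chr10:86300372-86349506, plus strand), the inhibitor that binds to the matrix and blocks ADAMTS4 and ADAMTS5, stood at 2692, 3674, 3179 and 3882 with m31. The control libraries stood at 3196, 3754, 2904 and 3098. The highest and the lowest of the 8 were both m31 libraries. The means were 3357 ± 532 and 3238 ± 365 (SD, n = 4 each), with a log2 difference of 0.04 ± 0.12 (SE, limma adjusted p = 0.964) whose sign turned in 4 of the 20 alternatives. Timp3 overlaps Syn3, which held 5.61 to 14.4 normalised reads per library. Timp4, the remaining inhibitor of the family and one of those common in striated muscle, had 923 ± 229 and 1015 ± 338 (log2 difference -0.12).

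Within a library, proteases were set beside an inhibitor that binds them, as differences of log2(value + 1) with no test. Mmp2 minus Timp2 was -1.19, -1.11, -1.09 and -0.49 in m31 replicates 1 to 4 and -1.09, -0.92, -0.76 and -1.31 in controls. This difference spanned 0.82 over the 8 libraries while Mmp2 itself spanned 2.18, and the group means differed by 0.05, or by -0.11 without m31 replicate 4. The library m31 replicate 4, in which both genes were highest, also had the highest Mmp2 for its Timp2. Mmp14 minus Timp2 was -2.74, -3.40, -3.43 and -1.94 with m31 and -3.23, -3.19, -2.53 and -2.84 in controls, and group means differed by 0.07, or by -0.24 without that library. Mmp9 minus Timp1 ranged from 0.06 to 2.27 with m31 and from 0.65 to 2.57 in controls, with a difference of -0.53 between group means (-0.49 without that library). For all 3 pairs the ranges of the groups overlapped.

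Levels of different genes were compared per kb of exon. With the control guide the order of mean normalised reads per kb was Timp2 at 940, Mmp2 at 544, Timp3 at 398, Adamts1 at 182, Mmp14 at 81.9, Adamts5 at 66.7, Timp1 at 21.1, Mmp9 at 19.1, Mmp3 at 10.5 and Mmp13 at 0.257. The inhibitors Timp2 and Timp3 and the gelatinase gene Mmp2 were thus the most abundant of the 10 messages per length. Neighbours in that order whose control libraries overlapped were Mmp2 with Timp3, Mmp14 with Adamts5, Timp1 with Mmp9, and Mmp9 with Mmp3. With m31 the first 4 places were the same, at 1373, 886, 412 and 224, and Mmp13 came next at 219 through its 1 library. Neighbours then overlapped in every case except Timp3 and Adamts1.

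The plot of the 10 genes by library shows which libraries they followed. Of the 8 libraries, m31 replicate 4 was highest for 7 of the 10 genes (Mmp2, Mmp3, Mmp13, Mmp14, Timp1, Timp2 and Timp3), where it was highest for 16.5% of all tested genes. It was more than 2-fold above all others for 4 of the 10 and for 0.739% of all tested genes. Mmp13, in both counts, passed the minimum through that library alone, so its place in them was fixed in advance. Control replicate 3 was highest of the 8 libraries for 1 of the 10, Mmp9, and for 16.5% of all tested genes. Adamts1 and Adamts5 were highest in m31 replicate 1.

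**Figure D3:**
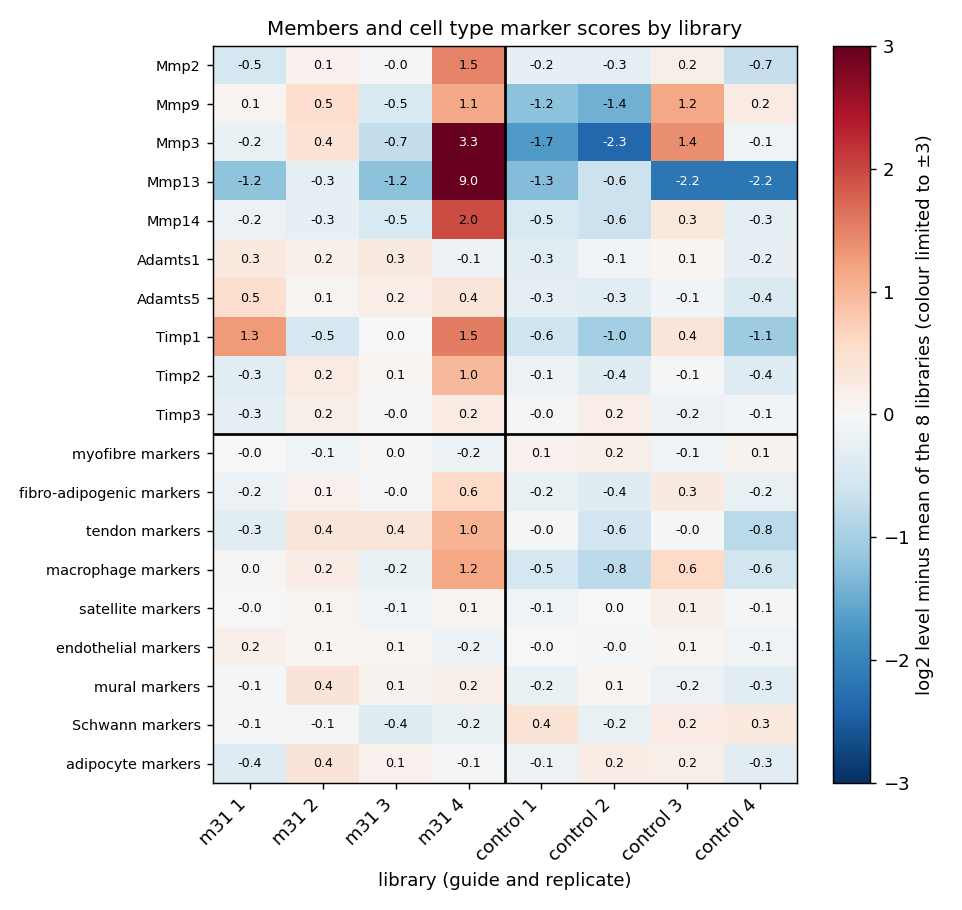
Log2(value + 1) of each of the 10 genes in each library, centred on the gene's mean over the 8 libraries, with the scores of 9 marker lists in the rows under them and colours limited at ±3. The column of m31 replicate 4 is highest for 7 of the 10 genes and also for the macrophage score, at 1.16, and the tendon score, at 1.04. Mmp13, among the 7, passed the minimum for testing through that library alone.

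Correlations over the 8 libraries, which share the same 2 groups and the same leading library, are given as descriptions. Mmp2 and Timp2 had Pearson's r of 0.97, and of 0.84 over the 7 libraries without m31 replicate 4. Mmp3 had 0.93 with Mmp9 and 0.91 with Mmp14, and 0.99 and 0.90 without that library. The correlation of Mmp2 with Mmp14 went from 0.90 to 0.36, and that of Mmp14 with Timp2 from 0.86 to 0.20. For Adamts1 with Adamts5 it was 0.69 and 0.92. Over the 45 pairs the median was 0.57, and 0.31 without that library. Over the 10703 tested genes with a mean of at least 100, those most like Adamts5 were Npc1, Mtmr9 and Tpst1 (r of 0.97, 0.95 and 0.94). Those most like Mmp2 were Col16a1, Tnc and Eef1a1 (0.99 each), and Mmp14 was most like Col3a1, Arpc5 and Samhd1 (0.99, 0.98 and 0.98).

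For the inhibitors, genes most like Timp2 were Olfml3, C1ra and Tnc (0.98 each), and those most like Timp1 were S100a11, 2610005L07Rik and Lox (0.95, 0.94 and 0.94). Timp3 was most like Isyna1, Slc43a3 and Myl9 (0.97, 0.95 and 0.94). Mmp3 was most like Gda, Ddx58 and Fcrls (0.99, 0.97 and 0.97), and Mmp9 like Rab8b, Cp and Adgrd1 (0.97, 0.97 and 0.96). For Mmp13, with Tapbp, C1qtnf6 and Fads2 (0.98, 0.96 and 0.95), the likeness is to a pattern with 1 high library. Adamts1 was most like Osbpl11, B930095G15Rik and Dync1li1 (0.94, 0.94 and 0.93).

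Markers of other cells of muscle moved with several of these genes. Lists were scored per library by averaging log2(value + 1) over their tested genes and centring on the 8 libraries. Summed levels also cover tested genes only. All 10 macrophage markers were measured, all 10 were highest in m31 replicate 4, and all 10 had positive differences. Of all genes tested, 16.5% were highest in that library and 51.3% had positive differences. The 51.3% is also the background for the sign counts of the marker lists that follow. Their summed level was 3962 to 4896 in m31 replicates 1 to 3 and 9590 in replicate 4, and 2878 to 6776 in controls. The macrophage score had r of 0.95 with Mmp3, 0.88 with Mmp14 and 0.86 with Mmp9, and 0.89, 0.88 and 0.85 without m31 replicate 4. Lyz2 stood at 3312 in that library and at 960 to 2485 in the others. The part of these cells in the results was not tested.

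All 10 tendon markers were measured, with positive differences for all 10 and a summed level of 13632 to 33865 with m31 and 8348 to 16909 in controls. Their score had r of 0.94 with Timp2 and 0.89 with Mmp2, and 0.93 and 0.81 without m31 replicate 4. Thbs4, a tendon matrix gene, stood at 13646 in that library and at 2788 to 7028 in the others. The 10 markers of fibro-adipogenic progenitors, the fibroblast-like cells of muscle, had 9 positive differences and sums of 40003 to 62413 and 37691 to 49847. Their score had r of 0.94 with Mmp3 and 0.90 with Mmp2, and 0.87 and 0.77 without that library. With Mmp14 and Mmp9 this score had r of 0.89 and 0.83, near the macrophage values, and 0.81 and 0.83 without that library. Timp2 also had 0.89 with this score and 0.82 with the macrophage score (0.73 and 0.58 without that library). Mmp2 had 0.84 with the macrophage score (0.63 without that library), so these genes followed several lists. The 10 fibre markers had negative differences throughout, with sums of 4530470 to 5208370 and 4294130 to 5755390. The fibre score had r of -0.90 with Mmp3, -0.89 with Mmp9 and -0.74 with Mmp14, and -0.89, -0.85 and -0.81 without m31 replicate 4. The part of these tissues in the results was not tested.

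The 8 endothelial markers were not led by m31 replicate 4 in any case, and their sums were 10943 to 13096 with m31 and 10953 to 12380 in controls. Their score had r of 0.81 with Adamts1 and 0.39 with Adamts5, and 0.87 and 0.95 over the 7 libraries without m31 replicate 4. With Timp1 it had 0.14, and 0.90 over those 7 libraries. The 8 mural cell markers had 7 positive differences and sums of 15684 to 20289 and 16351 to 18655, and 8 Schwann cell markers had 8 negative differences and sums of 5254 to 7722 and 5655 to 10374. Of 9 neutrophil markers 1, Csf3r, passed the minimum, and S100a9 was at 0 in m31 replicate 4. Csf3r stood at 16.2 to 39.9 with m31 and at 10.9 to 29.2 in controls. The 7 adipocyte markers summed to 57652 to 65911 and 63799 to 74195, and the 7 satellite cell markers to 110448 to 115775 and 104341 to 119812. Of 7 T and NK cell markers 1, Cd3e, was tested (23.7 to 46.5 with m31 and 13.3 to 32.4 in controls). Of 6 B and plasma cell markers 2 were tested, and these summed to 734 to 1971 with m31 and 823 to 1700 in controls.

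Because Mmp13 is abundant in bone and cartilage, a list of 15 bone and cartilage genes was added after its values were seen. Of these, 11 were in the table, while Bglap, Bglap2, Ibsp and Col10a1 were not among its rows. Acan, the cartilage proteoglycan aggrecan, stood at 107 in m31 replicate 4, from 133 reads, and at no more than 3.37 in the other 7, with 13 reads between them (ratio 58.6, exact 95% counting interval 33.1 to 113). The bone transcription factor gene Sp7 stood at 10.4 in that library against at most 3.35 elsewhere, and Runx2 at 56.9 against at most 36.4. Col2a1 stood at 64.1 against at most 56.4. With Mmp10, 5 of the 11 genes were thus highest in m31 replicate 4, beside 16.5% of all genes tested. Mmp10 was picked with its values known and Acan was tested through that library alone, so both were bound to be in that count. The other 6 (Alpl, Spp1, Dmp1, Phex, Sox9 and Ihh) were each exceeded by another library, and Alpl, bone alkaline phosphatase, was lowest of the 8 there, at 361. The 7 of the 11 genes that passed the minimum for testing, Mmp10 not among them, summed to 617 to 925 with m31. In controls they summed to 673 to 919, and m31 replicate 4 stood at 838. The part of such tissue in the Mmp13 value was not tested.

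The rest of the pathway was described by 8 lists, in which 69 genes were tested and 0 passed the adjusted p of 0.05 in either direction. Of the 69, Mmp11, Adamts3, Adam15, Vcan, Col1a1 and Col4a2 had an unadjusted p under 0.05 by limma. All of these were higher with m31, beside 3.76% of all genes higher and 3.03% lower at that threshold. Of 18 other metalloproteinase genes, 12 were in the table and 6 were tested, all with positive estimates and a median log2 difference of 0.20, which was 0.07 without m31 replicate 4. Among them Mmp11, a stromal metalloproteinase, had 149 ± 59.2 with m31 and 99.3 ± 13.8 in controls. The log2 differences were 0.52 for Mmp11, 0.32 for Mmp19 and 0.25 for Mmp23. Without m31 replicate 4 these were 0.28, 0.08 and -0.09, so the sign of Mmp23 turned. Of 17 other Adamts genes 14 were tested, 11 with positive estimates and a median of 0.11. Without m31 replicate 4 the median was -0.07 over 13 genes, as Adamts17, at 0.60 with all libraries, was then under the minimum. Adamts3, a procollagen protease, had 31.1 ± 4.59 and 20.7 ± 3.23 (log2 difference 0.56), Adamts2, of the same kind, had 0.36 and Adamts20 -0.26 (0.52, 0.22 and -0.22 without that library). The 6 Adamts-like genes, which have no protease domain, had 5 positive estimates and a median of 0.29, with Adamtsl5 at 0.34, Adamtsl1 at 0.33 and Adamtsl3 at 0.26 (0.42, 0.18 and 0.20 without m31 replicate 4).

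Among 5 tested genes of other inhibitors, 3 had positive estimates with a median of 0.12, Reck, a membrane-bound inhibitor, being at 0.34, Spock2 at 0.35 and the cystatin gene Cst3 at 0.12 (0.21, 0.21 and 0.06 without m31 replicate 4). Of 8 tested genes of activators and the plasmin system, 7 had positive estimates with a median of 0.24. The convertase genes Pcsk5 and Pcsk6 had 0.39 and 0.33, and Bsg, which encodes the metalloproteinase inducer basigin, had -0.15 (0.19, 0.21 and -0.10 without that library). All 8 Adam genes had positive estimates, but their median was 0.04 and -0.04 without m31 replicate 4. In that list Adam15 had 722 ± 42.5 and 611 ± 89.1 (0.25) and Adam12 had 0.87 (0.29 and -0.06 without it). Of 6 receptors and uptake genes all were positive with a median of 0.16, but 3 were positive, with a median of 0.03, without m31 replicate 4. Mrc2, which encodes a collagen uptake receptor, had 0.56, the protease clearance receptor gene Lrp1 0.38 and Cd44 0.17, and without that library they had 0.30, 0.20 and -0.05.

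Matrix substrates had the highest list median, 0.40, with 15 of 16 tested genes positive. Without m31 replicate 4 the median was 0.23 over the 15 genes still tested. Acan, counted among the positive genes, passed the minimum through that library alone, so its estimate rests on it. Versican, cut by ADAMTS1 and ADAMTS5, had 391 ± 114 normalised reads with m31 and 240 ± 137 in controls (Vcan log2 difference 0.84, 0.67 without m31 replicate 4). Col1a1, the main fibrillar collagen gene, had 1.33 and Col4a2, a basement membrane collagen gene, 0.42 (0.79 and 0.38 without that library). Over the 69 genes m31 replicate 4 was highest for 38 (55.1%), beside 16.5% of all genes tested. Acan and Adamts17, both among the 38, were under the minimum without that library. The median over all genes tested was 0.01.

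**Figure D4:**
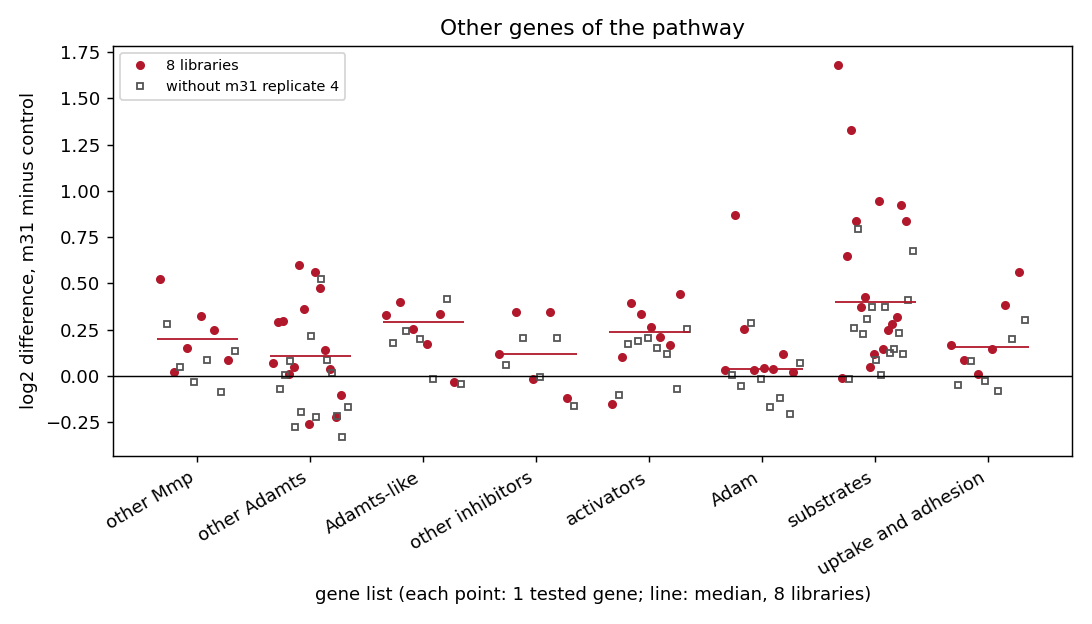
Log2 differences, m31 minus control, of the tested genes of the 8 pathway lists: filled points with all 8 libraries, open squares without m31 replicate 4, and lines at the medians with all libraries. The lines run from 0.04 for the Adam genes to 0.40 for the matrix substrates, and the list medians are lower without that library in all 8 lists. Acan and Adamts17 have no open square, as they were under the minimum without that library.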

How the data were processed

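Total RNA of 8 gastrocnemius samples was sequenced, per the labels. The deposited table holds a normalised read signal per gene, made by the authors with STAR and DESeq2 (no versions), per the submitters' processing notes. These list GRCh38.p12, a human build, whereas the identifiers are mouse Ensembl. Not given in the sources used here were the counter, strand setting, annotation and filters. Of 11 value columns, 3 match no labelled sample and were not used. The 5 construct entries (0.0230 to 0.142% of reads) were kept out of tests and totals. Symbols matched 22979 of 23008 genes, and positions are from GENCODE on GRCm38.

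All values were whole multiples of 1 read (within 0.01), so depth is known, and intervals cover counting error only. The design foresaw a log-scale test for normalised values: limma 3.58.1 (R 4.3.3) on log2(value + 1) (intensity trend, intercept and group, all 8 libraries, mean of at least 10), with Benjamini-Hochberg adjustment. Exact permutation tests were two-sided. The members and lists were chosen with earlier results of these data known. Named genes were all 10 members and Lama1, up to 3 genes per pathway list with the smallest unadjusted p, the 3 most correlated genes per member and up to 2 markers per list with the highest mean. Alternatives left out each library or changed the replicate block, minimum, pseudocount, scaling, library weights or GNDM covariate, or used edgeR 4.0.16 and DESeq2 1.42.0 on recovered reads. Tested on simulated data of 15796 and 15798 genes, limma recovered 18.8% of 197 genes with a 1.5-fold change and 69.2% of 198 with a 2-fold change. Replicates differed by more than sampling noise in every pair (chi-square per degree of freedom 13.0 to 52.2).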

Additional observations from a re-analysis of the deposited data

Results flagged for a closer look

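In 3 of the 22 groups of 4 libraries examined, 1 library lay so far from the other 3 that its gap took most of the group's range. For independent, normally distributed values chance gives such a gap in about 1 of 20 groups. The 22 groups were of normalised reads and came from the same 8 libraries, so their count cannot be set against that rate. All 3 flagged groups were the m31 group with replicate 4 at the top: Mmp3 at 186 normalised reads, Mmp13 at 2338 and Mmp14 at 2202. The other m31 libraries stood at 10.9 to 25.2, 0.910 to 2.70 and 413 to 507 for these genes.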

How the results depend on the processing

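Of the 20 alternatives, 19 left 0 of the 10 genes, or of those still tested, past an adjusted p of 0.05, and DESeq2 passed 1, Adamts5 (log2 difference 0.58). All genes past that threshold numbered 31 with DESeq2, 3 with m31 replicate 4 and control replicate 3 left out together, and 1 to 2 with each library left out in turn (2 without m31 replicate 1 or control replicate 4). Genes of the 10 whose groups did not overlap numbered 1 to 2 with each library left out (2 without m31 replicate 1, m31 replicate 4, control replicate 2 or control replicate 3, beside 7.39, 6.92, 7.60 and 12.2% of all genes) and 3 with m31 replicate 4 and control replicate 3 both left out (17.2% of all genes). Adamts5 was among them each time. With each library left out, the log2 difference of Mmp14 ran from -0.0226 (without m31 replicate 4) to 0.781 and that of Timp3 from -0.0303 (without m31 replicate 4) to 0.146. Timp3 was also negative without m31 replicate 2 (-0.00378), without control replicate 3 (-0.00574) or with m31 replicate 4 and control replicate 3 left out together (-0.0804); the cause was not tested. Lama1 passed in every alternative, with log2 differences of 4.98 to 7.22. Adamts1 ranged from 0.24 to 0.46, with a lowest adjusted p of 0.165. Mmp13 gave no value in 3 of the alternatives, where it was under the minimum. The median log2 difference over all genes was -0.01 with quantile scaling and -0.03 with recentring, against 0.01. Depth limits Mmp13 outside m31 replicate 4, where it had 8 reads in 7 libraries.

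Replicate numbers are shared between the groups, but same-numbered libraries did not deviate together (r of 0.05, -0.05, -0.13 and -0.18), and no library was closest to its own number. With the replicate number as a block, 1 gene (Lama1) and 0 of the 10 passed, and Adamts5 had a difference of 0.57 with limma's adjusted p = 0.838.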

Other observations

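Beyond the 10 genes, 6 of the 69 tested pathway genes were more than 2-fold above all other libraries in m31 replicate 4. They were Adam12, Acan, Fn1, Tnc, Col1a1 and Col3a1, and the share over all genes tested was 0.739%. Acan passed the minimum for testing through that library alone. Adam12, a membrane protease gene of fibroblasts and regenerating muscle, stood 5.21-fold above the next library, and its log2 difference of 0.87 was -0.06 without that library. Fn1, which encodes fibronectin, stood 3.46-fold above the next, Col1a1 3.76-fold, Col3a1 3.41-fold and the tenascin gene Tnc 3.03-fold. The integrin genes Itgb1 and Itgav, agrin (Agrn) and dystroglycan (Dag1) were below their highest other library there, at 0.92, 0.82, 0.79 and 0.86 of it. Mmp15, a membrane-type metalloproteinase gene at 1375 ± 90.7 with m31 and 1360 ± 148 in controls (SD, n = 4 each), was also not led by that library. The genes of this paragraph were chosen with their values known.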
